A study of Mus musculus with 8 samples.

Results

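The genes described here mark the macrophages that line the lymph sinuses and fill the medulla of a lymph node. The list holds 10 genes, Siglec1, Marco, Cd68, Adgre1, Mrc1, Cd163, Timd4, Cd5l, Ms4a7 and Mertk, taken by symbol and gene identifier through the annotation of the array platform. A probe was named for 8 of them, out of 11487 genes named on the array, and these 8 have 11 of the 45281 probes on the array. Cd68 and Cd5l have no probe in the annotation used here and were not analysed. The tissue was the draining lymph node of a subcutaneous B16 melanoma, a mouse melanoma line grown in wild-type C57BL/6 females. Into the tumors of 4 mice 3M-052, an agonist of the toll-like receptors TLR-7 and TLR-8, was given as 1 injection, and the other 4 received vehicle. All 8 mice carried a tumor, so no node without a tumor upstream was compared, and nodes were taken 4 days after the injection. One label field calls the RNA that of tumors, whereas the other fields and the methods name lymph nodes, which was used here.

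Macrophages of the subcapsular and medullary sinuses sit in the lymph stream, where they catch particles, immune complexes, viruses and dead cells that drain from the tissue and pass antigen on to B cells. Medullary macrophages lie deeper, among plasma cells, and clear what escapes the sinus. Their identity rests on receptors for sialic acids, polyanions, mannose and phosphatidylserine, and their upkeep on signals from lymphatic endothelium and lymphocytes. Sinus macrophages are known to be lost from nodes during strong inflammation, while monocytes that enter an inflamed node can take on some of the same surface receptors. A whole-node array cannot tell fewer cells of a type from less RNA per cell.

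Of the 7 genes with a probe that passed the filter, 1 was higher in 3M-052 nodes, none was lower and 6 did not pass the test. The gene that was higher was Ms4a7, at 2.33-fold. Adgre1 was higher at 1 of its 3 probes and did not pass at its brightest probe, which stands for the gene in the counts. The test was limma, with p-values adjusted over 19462 probes by the method of Benjamini and Hochberg and a threshold of 0.05. Over all those probes, 546 (2.81%) were called higher and 446 (2.29%) lower. At an unadjusted p under 0.05, 2 of the 7 genes, Ms4a7 and Adgre1, were higher and 0 were lower. The median log2 fold change of the 7 genes was 0.25, with 5 positive and 2 negative, beside a median of -0.01 over all 19462 probes.

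Sequence around the start is shown for Ms4a7, which has 2 annotated starts, and for Marco, a sinus receptor that did not pass the test. The start regions of a gene that changed and one that was not called can so be read side by side. Each stretch runs 5′ to 3′ over 300 bases of GRCm38.p6, from 250 bases before a RefSeq gene start to 50 after it, on the minus strand, and capitals mark GAGGAA, a core letter string of the sites that PU.1, the ETS factor of the myeloid lineage, is known to bind.
Ms4a7, chr19:11336097-11336396: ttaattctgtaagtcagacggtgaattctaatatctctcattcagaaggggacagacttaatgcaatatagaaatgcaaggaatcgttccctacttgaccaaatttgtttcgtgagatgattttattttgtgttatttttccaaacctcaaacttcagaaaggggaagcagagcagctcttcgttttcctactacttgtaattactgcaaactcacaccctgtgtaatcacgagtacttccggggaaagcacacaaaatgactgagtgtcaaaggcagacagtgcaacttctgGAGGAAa
Ms4a7, chr19:11334646-11334945: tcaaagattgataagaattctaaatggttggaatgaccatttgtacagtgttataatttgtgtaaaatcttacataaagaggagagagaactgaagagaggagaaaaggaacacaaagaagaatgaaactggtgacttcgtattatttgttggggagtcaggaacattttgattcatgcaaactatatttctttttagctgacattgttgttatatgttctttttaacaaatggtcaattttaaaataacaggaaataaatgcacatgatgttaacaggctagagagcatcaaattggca
Marco, chr1:120504975-120505274: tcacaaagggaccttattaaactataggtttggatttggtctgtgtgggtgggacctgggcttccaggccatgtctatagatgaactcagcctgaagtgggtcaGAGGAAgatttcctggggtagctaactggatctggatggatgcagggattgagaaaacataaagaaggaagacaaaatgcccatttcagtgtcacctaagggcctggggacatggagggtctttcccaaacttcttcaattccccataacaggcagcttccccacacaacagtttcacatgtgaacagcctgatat
The table of start regions held 9 windows for 8 of the 10 genes. GAGGAA, read on both strands, stood in 5 of the 9 windows and in 28.3% of all 32851 windows of the same length. In the first Ms4a7 window it lay after the gene start, at offset 43, and in that of Marco before it, at offset -146. The second Ms4a7 window held none. TGCTGA, part of the site of the MAF factors known from macrophages, stood in 2 of the 9, those of Cd5l and Timd4, and in 19.5% of all windows. Only letters were matched, and the strings were chosen with earlier results of these data known.

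**Figure D1:**
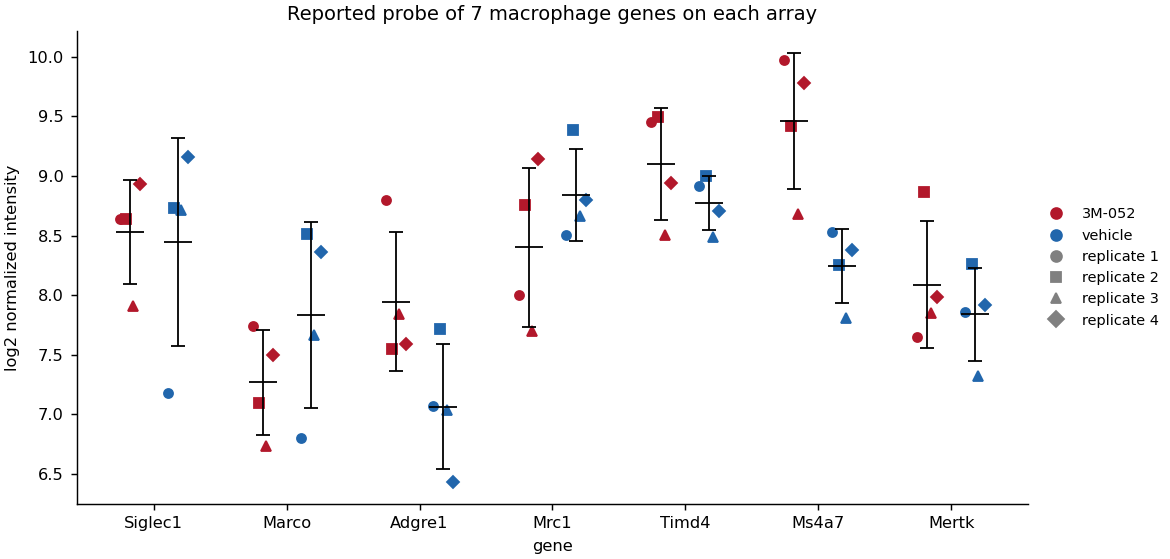
Log2 normalized intensity of the 7 genes with a probe that passed the filter, each at its brightest probe, in 4 3M-052 nodes (red, left of each pair) and 4 vehicle nodes (blue, right). Marker shapes give the replicate, and bars the mean and SD. The groups separate only for Ms4a7, while for the other 6 genes the points of both groups overlap.

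The sinus receptors Siglec1 and Marco come first, as the genes whose products face the lymph. Siglec1 (chr2:131067801-131086778), also called sialoadhesin or CD169, binds sialic acids on passing cells, particles and viruses and is the defining gene of sinus macrophages. Its normalized intensity was 399, 399, 241 and 488 in 3M-052 nodes 1 to 4, against 145, 426, 420 and 573 in vehicle nodes 1 to 4. Vehicle node 1 was the lowest array and vehicle node 4 the highest, so the 3M-052 values lay within the vehicle range. The probe was detected on all 8 arrays. The means were 382 ± 103 in 3M-052 nodes and 391 ± 179 in vehicle nodes (SD, n = 4 each). The log2 fold change was 0.08 (SE 0.38, adjusted p = 0.94 by limma, 95% interval -0.75 to 0.92), and the exact permutation test gave p = 0.89. The sign turned without vehicle node 1 (-0.34) and without 3M-052 node 4 (-0.05), and neither value passed the test. The interval covers nearly a doubling as well as a fall, so a moderate change in either direction was not detectable with 4 arrays a group.

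Marco (chr1:120474538-120505024) encodes a scavenger receptor for bacteria and polyanionic particles that is known from medullary macrophages of the node and the marginal zone of the spleen. It measured 214, 137, 107 and 180.5 in 3M-052 nodes, against 111, 365, 203 and 329 in vehicle nodes. Again vehicle node 1 was the lowest of its group, whereas vehicle nodes 2 and 4 exceeded every 3M-052 node, and the groups overlapped. Mean intensity was 159 ± 47.2 in 3M-052 nodes and 252 ± 117 in vehicle nodes (SD, n = 4 each). The log2 fold change of -0.57 (SE 0.36) did not pass the test (limma, adjusted p = 0.42, 95% interval -1.36 to 0.22, exact permutation p = 0.29). It ranged between -0.92, without vehicle node 1, and -0.30, with array weights, over 21 alternatives and passed under none of them. Siglec1 and Marco thus shared their lowest array in each group, 3M-052 node 3 and vehicle node 1.

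Mrc1 (chr2:14229414-14332023), the mannose receptor CD206, takes up glycoproteins and is made by medullary macrophages and also by lymphatic endothelium. Values were 256, 432, 208 and 566 in 3M-052 nodes, against 364, 671, 405 and 445 in vehicle nodes. The 3M-052 nodes were spread more widely, with 2 of them below every vehicle node and 1 above all but 1. The means were 366 ± 165 in 3M-052 nodes and 471 ± 137 in vehicle nodes (SD, n = 4 each). The log2 fold change was -0.44 (SE 0.31, limma adjusted p = 0.48, 95% interval -1.12 to 0.24, exact permutation p = 0.29). With 1 array left out it lay between -0.68, without 3M-052 node 4, and -0.20, without 3M-052 node 3, and with fat cell markers as a covariate it was -0.06, none of them past the threshold.

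Cd163 (chr6:124304636-124330529), the receptor for hemoglobin bound to haptoglobin, was near the background of the array. Its probe had a detection p under 0.05 on 1 of 4 3M-052 arrays, that of node 2, and on 2 of 4 vehicle arrays, those of nodes 1 and 3, and did not pass the filter. Normalized intensity was 20.4, 33.2, 20.5 and 21.1 in 3M-052 nodes, against 43.7, 29.5, 68.1 and 22.3 in vehicle nodes. The groups overlapped. Most of these arrays give only a bound for the gene, so neither a fold nor a test is stated.

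Adgre1 (chr17:57358581-57483529) encodes the adhesion receptor that is used, through the classic macrophage antibody against it, to tell medullary macrophages, which carry it, from subcapsular sinus macrophages, which have little. It is also found on monocyte-derived macrophages and had 3 probes. The brightest, ILMN_1216880, gave 445, 188, 229 and 193 in 3M-052 nodes, against 134, 210.5, 132 and 86.2 in vehicle nodes. In 2 of 4 3M-052 nodes the value was above every vehicle node, and the other 2 fell below vehicle node 2. The means were 264 ± 122 in 3M-052 nodes and 141 ± 51.6 in vehicle nodes (SD, n = 4 each). The log2 fold change of 0.88 (SE 0.32) missed the threshold (limma, adjusted p = 0.15, 95% interval 0.17 to 1.59, exact permutation p = 0.086). It was positive under all 21 alternatives and passed under none, with adjusted p between 0.058 and 0.37.

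The middle probe of Adgre1, ILMN_2847787, separated the groups. It measured 317, 211, 170 and 237 in 3M-052 nodes, against 111, 162, 99.9 and 82.9 in vehicle nodes. All 4 3M-052 nodes lay above all 4 vehicle nodes, by a small gap between 3M-052 node 3 and vehicle node 2. The log2 fold change was 1.04 (SE 0.26), or 2.06-fold, with a limma adjusted p = 0.040 and an exact permutation p = 0.029, the smallest that 4 against 4 can give. The call was lost with arrays centered on their median (adjusted p = 0.13), with fat cell markers as a covariate (0.075), without any filter on dim probes (0.059), with the methods' t-test after adjustment (0.13) and without each of 3M-052 nodes 1, 2 and 4 and vehicle nodes 1, 3 and 4 (0.054 to 0.13). The dimmest probe, ILMN_2756353, was detected on 4 of 4 3M-052 arrays and 1 of 4 vehicle arrays, at 45.4, 33.5, 42.8 and 39.8 in 3M-052 nodes, against 27.3, 30.2, 25.8 and 37.7 in vehicle nodes. Detection on the 3M-052 arrays was enough for it to pass the filter, and most of its vehicle values are bounds, so it counts neither for nor against the other probes. Its groups overlapped, and it did not pass the test (limma, adjusted p = 0.24, exact permutation p = 0.057).

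Ms4a7 (chr19:11321039-11336146) encodes a membrane protein of the family that includes CD20 and is a marker of tissue macrophages and of some monocyte-derived macrophages. Its brightest probe, ILMN_3091003, measured 1004, 684, 409 and 880.4 in 3M-052 nodes, against 370.5, 305, 224 and 332 in vehicle nodes. The lowest 3M-052 node, node 3, was above the highest vehicle node, node 1, so the groups did not overlap. Of all 19462 probes, 1085 (5.57%) had all 3M-052 values above all vehicle values and 1382 (7.1%) the reverse, and at the brightest probe Ms4a7 was the 1 gene of the 7 that did so in either direction. Mean intensity was 744.5 ± 259 in 3M-052 nodes and 308 ± 62.0 in vehicle nodes (SD, n = 4 each). The log2 fold change was 1.22 (SE 0.27, limma adjusted p = 0.026, 95% interval 0.62 to 1.81, exact permutation p = 0.029).

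The size of the Ms4a7 difference held between 1.04 and 1.48 on the log2 scale over 21 alternatives, whereas its call passed in 14 of them. The call was lost without 3M-052 node 1 (adjusted p = 0.095), 3M-052 node 4 (0.064), vehicle node 1 (0.055), vehicle node 2 (0.081) and vehicle node 3 (0.074), with the methods' t-test after adjustment (0.13) and with fat cell markers as a covariate (0.17). A second Ms4a7 probe, ILMN_3019158, was detected on 3 of 4 3M-052 arrays and 0 of 4 vehicle arrays, which kept it outside the filter. It gave 49.4, 38.4, 39.8 and 26.4 in 3M-052 nodes, against 29.7, 26.1, 28.9 and 31.9 in vehicle nodes. Here 3M-052 node 4, on which the probe was not detected, lay among the vehicle nodes, and the groups overlapped (exact permutation p = 0.11). With undetected arrays in both groups, no fold is stated for this probe.

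**Figure D2:**
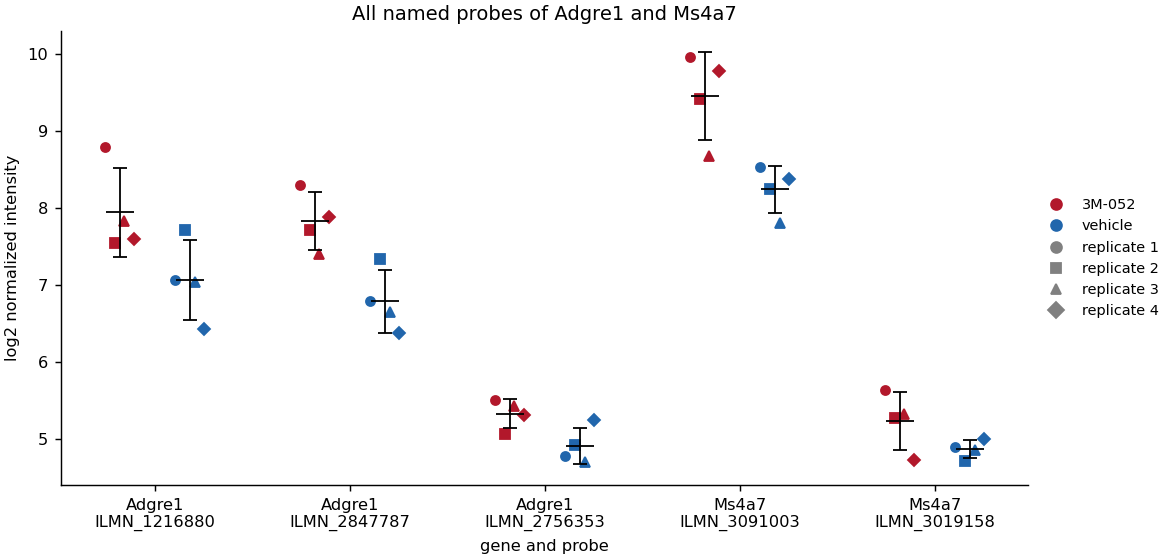
Log2 normalized intensity of the 3 probes of Adgre1 and the 2 probes of Ms4a7 in 4 3M-052 nodes (red, left of each pair) and 4 vehicle nodes (blue, right), with marker shapes for replicates and bars for mean and SD. The groups separate at ILMN_2847787 and ILMN_3091003 and overlap at the other 3 probes.

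Other genes of the Ms4a cluster of chromosome 19 were read beside Ms4a7. Ms4a6d, known from monocytes and macrophages, rose at both of its probes, by a log2 fold change of 1.61 (SE 0.24, adjusted p = 0.0032 by limma) and 1.89 (SE 0.30, adjusted p = 0.0047), and its groups did not overlap at either probe. The call of the brighter Ms4a6d probe was lost in 1 of 20 alternatives, the methods' t-test after adjustment (0.070). Ms4a1, which encodes CD20 of B cells, had a log2 fold change of -0.004 (adjusted p = 0.99), and Ms4a4b, known from T cells, -0.87 (adjusted p = 0.11) and -0.23 (adjusted p = 0.70) at its 2 probes. Ms4a6b gave 0.18 (adjusted p = 0.86) on 3 detected arrays in each group, and Ms4a8a gave -0.02 (adjusted p = 0.99) and 0.40 (adjusted p = 0.31). Of the 6 genes of the family with a probe that passed the filter, Ms4a7 and Ms4a6d were those called.

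Timd4 and Mertk are the receptors of the list that bind apoptotic cells. Timd4 (chr11:46810786-46844333), or TIM-4, recognizes phosphatidylserine and is a marker of long-lived resident macrophages. It measured 701, 719.99, 363 and 491 in 3M-052 nodes, against 482, 511, 359.7 and 418 in vehicle nodes. 3M-052 nodes 1 and 2 exceeded every vehicle node and node 3 was close to the lowest of them. The means were 569 ± 172 in 3M-052 nodes and 443 ± 67.7 in vehicle nodes (SD, n = 4 each), with a log2 fold change of 0.32 (SE 0.23, limma adjusted p = 0.48, 95% interval -0.19 to 0.83, exact permutation p = 0.26). With 1 array left out it lay between 0.19, without 3M-052 node 2, and 0.52, without 3M-052 node 3, and it passed in neither case.

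Mertk (chr2:128698915-128803162) encodes a receptor tyrosine kinase that engages dying cells through the bridging proteins Gas6 and protein S. It measured 201, 466, 231 and 252.5 in 3M-052 nodes, against 232, 307, 159.9 and 242 in vehicle nodes. 3M-052 node 2 stood above the other 7 arrays, which overlapped. The means were 288 ± 121 in 3M-052 nodes and 235 ± 60.3 in vehicle nodes (SD, n = 4 each), and the log2 fold change was 0.25 (SE 0.28, limma adjusted p = 0.68, 95% interval -0.37 to 0.87, exact permutation p = 0.54). Without 3M-052 node 2 it was -0.01, and without vehicle node 2 it was 0.39.

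**Figure D3:**
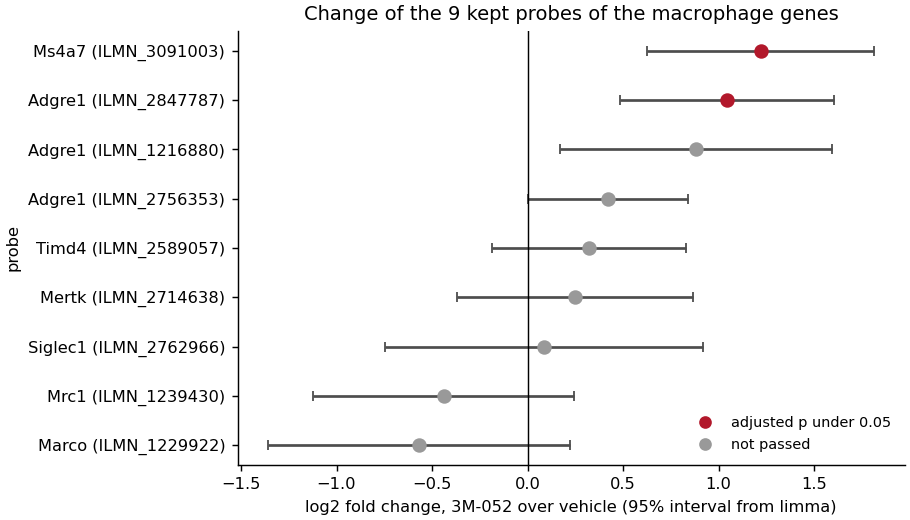
Log2 fold change, 3M-052 over vehicle, of the 9 probes of the macrophage genes that passed the filter, with 95% intervals from limma. Red points passed an adjusted p of 0.05, which Ms4a7 (1.22) and 1 probe of Adgre1 (1.04) did, and the intervals of Siglec1, Marco, Mrc1, Timd4 and Mertk include 0.

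Some nodes were low or high for many of the genes at once. 3M-052 node 3 was below its group mean in 7 of the 7 genes and was the lowest 3M-052 node for Siglec1, Marco, Mrc1, Timd4 and Ms4a7. Vehicle node 2 was above its group mean in 7 of 7. Vehicle node 3 was above the mean in 1 of 7 and was the lowest vehicle node for Timd4, Ms4a7 and Mertk. Vehicle node 1 was the lowest for Siglec1, Marco and Mrc1 and above its group mean in 4 of 7. Of those 4, Adgre1 (7.067 against a mean of 7.064, log2) and Mertk (7.86 against 7.84) lay almost at the mean. The mean log2 intensity of the 7 genes was 7.89 to 8.61 in 3M-052 nodes and 7.84 to 8.55 in vehicle nodes. The number of probes detected was 17817 to 19773 on 3M-052 arrays and 19094 to 20315 on vehicle arrays, and the number of arrays limits the precision.

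The node's other macrophage genes were set beside the list. Of 14 further resident macrophage genes, 1 rose and 0 fell: Slc11a1, the phagosomal metal transporter, with a log2 fold change of 0.59 (SE 0.15, limma adjusted p = 0.046). Its call was lost in 11 of 20 alternatives, among them the fat cell covariate (0.36) and the omission of any 1 of 3M-052 nodes 1, 2 and 4 or vehicle nodes 1, 2 and 3 (0.080 to 0.14). Complement C1qa, C1qb and C1qc, made in bulk by resident macrophages, gave 0.32, 0.41 and 0.34 (adjusted p = 0.54, 0.39 and 0.57). Spic, the factor of iron-recycling macrophages, gave 0.84 (adjusted p = 0.086), Nr1h3, the lipid sensor LXR alpha needed for splenic marginal zone macrophages, 0.69 (adjusted p = 0.061), and Folr2, a resident macrophage marker, -0.67 (adjusted p = 0.45). The median of the 14 was 0.25. With the replicate number as a block, 3 of the 14 were called higher and 1 lower, and with arrays centered on their median 3 were called higher. Without 3M-052 node 3 the count was 2 higher, and without vehicle node 4 it was 3. Of 9 genes of myeloid identity none passed, with 8 positive, 1 negative and a median of 0.32. Fcer1g had the largest change (0.72, limma adjusted p = 0.085), and Csf1r (0.17, adjusted p = 0.84) and Lyz2 (-0.01, adjusted p = 0.97) the smallest. The block called 3 of the 9 higher, while 1 passed with centering, without 3M-052 node 3 and without vehicle node 4. Among all probes the block called 1232 higher and 1499 lower, and centering 428 higher and 145 lower. With 1 array left out, the calls over all probes were 269 to 667 higher and 115 to 661 lower. The macrophage list itself kept 1 gene higher and 0 lower under both the block and centering.

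Among 10 other scavenger and pattern receptors, 2 rose and 0 fell, with a median of 0.44. Clec7a, or dectin-1, the receptor for fungal glucans, rose by 1.22 on the log2 scale (SE 0.22, limma adjusted p = 0.0086), and its call was lost in 2 of 20 alternatives, the methods' t-test after adjustment (0.069) and the fat cell covariate (0.082). Stab1, a scavenger receptor of macrophages and sinus endothelium, rose by 0.99 (SE 0.21, adjusted p = 0.021), which was lost in 6 of 20 alternatives: the methods' t-test after adjustment (0.099), the fat cell covariate (0.28), and without 3M-052 node 1 (0.079) or 4 (0.051) or vehicle node 1 (0.081) or 2 (0.073). Cd209b, the SIGN-R1 lectin of medullary and marginal zone macrophages, gave -0.64 (adjusted p = 0.56). The replicate block called 4 of the 10 higher and 1 lower, and without 3M-052 node 2 there was also 1 lower. Over all probes, the fit without 3M-052 node 2 called 593 higher and 660 lower.

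The list made for apoptotic cell uptake, beside Timd4 and Mertk, held 1 call of 9. It was lower, and the gene called is not particular to uptake. Dock2, a Rac exchange factor of lymphocytes and other leukocytes, fell by 1.31 (SE 0.32, limma adjusted p = 0.037), with the call lost in 9 of 20 alternatives, among them centering on the median (0.11), the fat cell covariate (0.42) and each single omission of 3M-052 nodes 1, 3 and 4 or vehicle nodes 1, 2 and 3 (0.078 to 0.13). Of the 9, 1 was positive and 8 were negative. The positive gene was Axl (0.28, adjusted p = 0.54), and Gas6, the ligand of Mertk and Axl, gave -0.88 (adjusted p = 0.18). The median was -0.25, and the replicate block called 0 of the 9 higher and 3 lower. The fit without 3M-052 node 2 called 2 lower, and over all probes it called 593 higher and 660 lower. Of 9 genes for signals of the macrophage niche and their receptors, 0 passed. Tnfsf11, the RANK ligand known to maintain sinus macrophages, gave -0.58 (adjusted p = 0.10) and Tnf 1.13 (adjusted p = 0.093), with a median of -0.35. The block called 2 of the 9 lower and 0 higher, whereas 1 was higher without 3M-052 node 2.

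**Figure D4:**
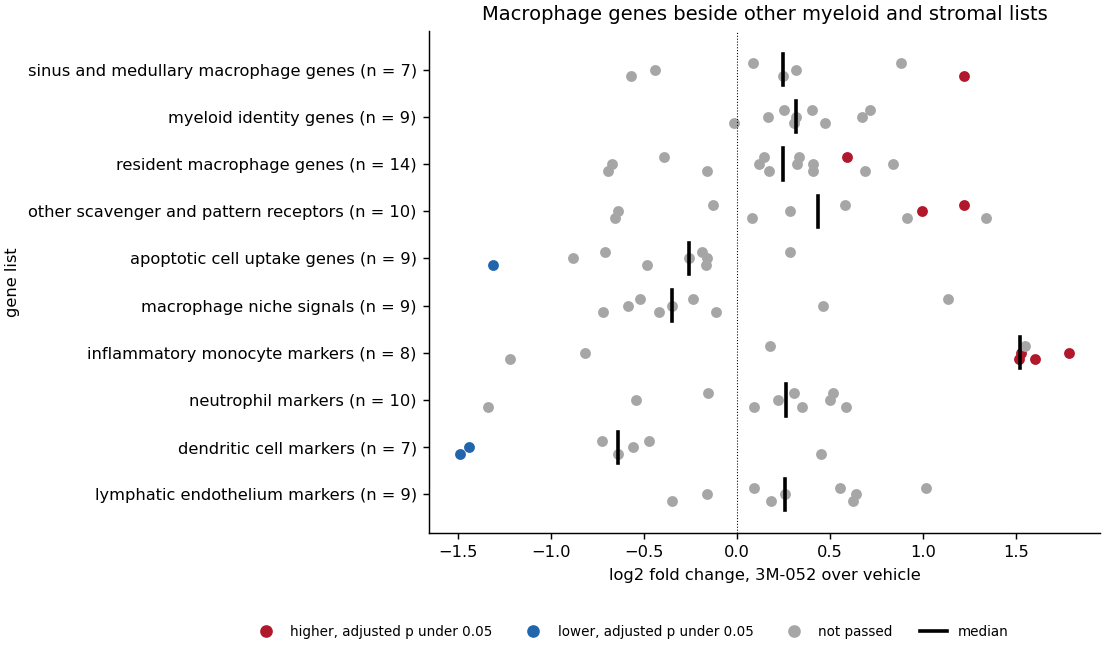
Log2 fold change, 3M-052 over vehicle, of every gene with a probe that passed the filter (points) in the sinus and medullary macrophage list and in 9 other lists, with the median of each as a black bar. Red marks higher and blue lower at an adjusted p of 0.05. The macrophage list has a median of 0.25 and 1 gene called, and the inflammatory monocyte list a median of 1.52 with 4 of 8 genes called. Of those 4, F10 was detected on 2 of 4 vehicle arrays.

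Markers of cells that share or neighbour these genes moved as follows. Inflammatory monocyte markers held 4 genes higher of 8 and 0 lower: F10 (1.79), Ms4a6d (1.61), Ly6c1 (1.53) and Plac8 (1.52), of which Ly6c1 and Plac8 are also made by lymphocytes or endothelium. F10 was detected on 4 of 4 3M-052 arrays, which was enough for it to pass the filter, and on 2 of 4 vehicle arrays. Its fold is thus in part against background, and it was 1.06 without background correction. Members of the same list with the opposite sign were F13a1 (-1.22, adjusted p = 0.17) and Fn1 (-0.81, adjusted p = 0.066), neither past the threshold. Chil3 (1.55, limma adjusted p = 0.097) and Ms4a6b (0.18, limma adjusted p = 0.86) did not pass either. Of the defining monocyte markers, Ccr2 had no probe that passed the filter and Ly6c2 had no named probe. The median of the 8 was 1.52, and their summed normalized intensity, to which Plac8 and Ly6c1 gave the most, was 16245 to 20959 in 3M-052 nodes and 6312 to 7881 in vehicle nodes. F10 lost its call with the methods' t-test after adjustment (0.073) and the fat cell covariate (0.092), and Ly6c1 and Plac8 kept theirs in 20 of 20 alternatives. The block called 5 higher and 1 lower, and without vehicle node 4 there were 2 lower. Over all probes the block called 1499 lower, and the fits with 1 array left out 115 to 661. Lymphatic endothelium, which also makes Mrc1, had 0 calls of 9, with Lyve1 at 0.62 (adjusted p = 0.18) and a median of 0.26, and the block called 2 higher. Of 11 type I interferon response genes 8 rose, led by Rsad2 (2.68), Isg15 (2.37), Irf7 (2.33) and Ifit3 (2.27), with a median of 2.13. The block called 9 higher, and 5 rose with the fat cell covariate, with a median of 1.52. These stand beside 0.08 for Siglec1, which is known to respond to interferon. Neutrophil markers had 0 calls of 10. Dendritic cell markers had 0 higher and 2 lower of 7, Fscn1 (-1.49, adjusted p = 0.00077) and Siglech (-1.44, adjusted p = 0.031), the second lost without 3M-052 node 1 (0.080) or 2 (0.054), without vehicle node 1 (0.087) or 2 (0.11), with the methods' t-test after adjustment (0.15) and with the fat cell covariate (0.35). The block called 4 of the 7 lower. The part of any of these cells in the values of the macrophage genes was not tested.

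Markers of other tissues and cells, in the node or around it, also differed between arrays. The summed intensity of 8 fat cell genes was 1323 to 4621 in 3M-052 nodes and 2073 to 19489.8 in vehicle nodes. None of the 8 passed the test. Without vehicle node 4, the vehicle node with the least fat signal, 5 were called lower. Dropping that node raises the vehicle mean, so those calls are no separate evidence of a fall. Adipoq, 1 of the 8, was detected on 3 of 4 3M-052 arrays and 4 of 4 vehicle arrays. The 4 melanocyte genes summed to 119 to 254 in 3M-052 nodes and 165 to 8093 in vehicle nodes, where vehicle node 3 stood highest, and Dct, the melanin enzyme, was detected on 1 of 4 3M-052 arrays and 4 of 4 vehicle arrays. None of the 4 passed. Without that node Ms4a7 was at 1.08 (limma, adjusted p = 0.074), Siglec1 at 0.17 and Mertk at 0.08. The 3 keratinocyte genes summed to 168 to 527 in 3M-052 nodes and 497 to 753 in vehicle nodes, with none called, although 1 was lower with the replicate block, without 3M-052 node 2 and without vehicle node 4. The block also called 1 fat cell gene lower. Over all probes the block called 1499 lower, and the fits with 1 array left out 115 to 661. Red cell genes fell in 2 of 3, Hba-a1 by 1.76 and Alas2 by 1.28, each call lost with the methods' t-test after adjustment and the fat cell covariate, and Alas2, detected on 3 of 4 3M-052 arrays, fell by 0.72 without background correction. The red cell sums were 1171 to 3209.9 in 3M-052 nodes and 6502 to 7612 in vehicle nodes. T cell markers fell in 4 of 6, Thy1 (-0.92), Cd3e (-0.89), Cd3g (-0.84) and Cd8b1 (-0.68), with a median of -0.79. None of the 6 passed with arrays centered on their median, where the median was -0.55, or with the fat cell covariate, where it was -0.77. The replicate block called 5 of the 6 lower. B cell markers had 0 calls of 5. With the fat cell genes as a covariate the log2 fold change of Ms4a7 was 1.31 and that of the brightest Adgre1 probe 1.15, neither past the threshold. The part of these tissues and cells in the macrophage values was otherwise not tested. Whether the melanocyte signal came from tumor cells or from tissue around the node was not tested either.

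**Figure D5:**
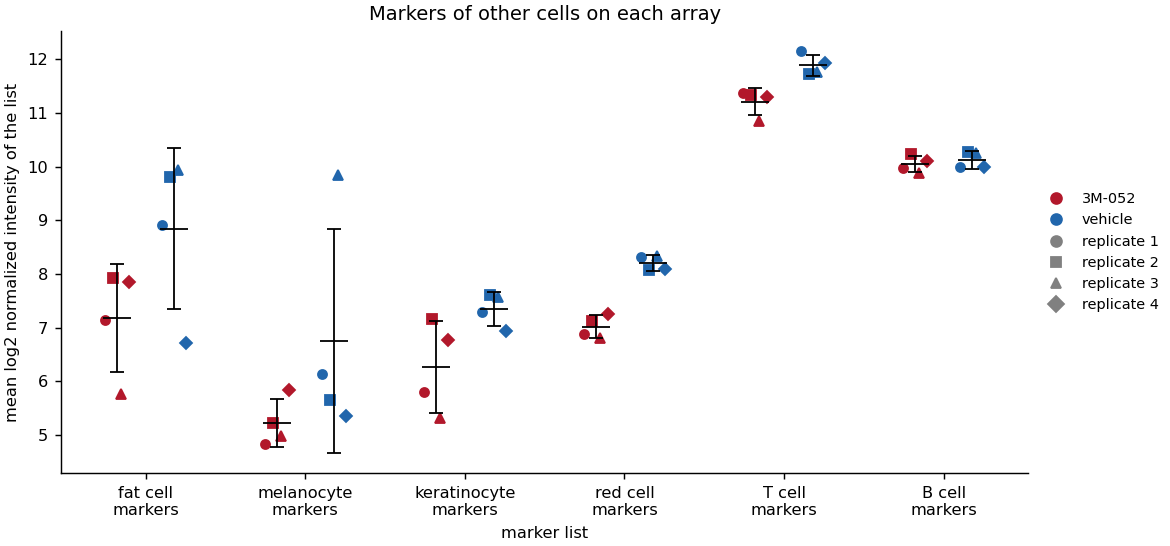
Mean log2 normalized intensity of 6 marker lists in 4 3M-052 nodes (red, left of each pair) and 4 vehicle nodes (blue, right), with marker shapes for replicates and bars for mean and SD. The melanocyte mean reaches 9.84 in vehicle node 3, and the red cell and T cell means of the 2 groups do not overlap.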

How the data were processed

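RNA of 8 draining lymph nodes, 1 per mouse, had been amplified in 2 rounds from 100 ng, labeled and measured on Illumina mouse bead arrays (Ref-6, version 2). The authors deposited a table with the intensity of 45281 probes on each array from GenomeStudio (version not given in the sources used here) together with a detection p-value in steps of 1 in 936. They also deposited an intensity table of 21765 probes with their own normalization, not given in the sources used here. Its columns correlated best with their own arrays (0.984 or more), had medians of 115, 123, 123 and 118 on 3M-052 arrays 1 to 4 and 125, 126, 123 and 119 on vehicle arrays 1 to 4, and were taken as linear and uncentered, with the direction of the intensity.

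The neqc function of limma 3.58.1 (R 4.3.3, offset 16) corrected the background with the detection p-values, quantile normalized the arrays and took log2. Printed intensities are these values on the linear scale, and levels of different probes cannot be set against each other. A probe stayed when its detection p was below 0.05 on 4 or more of the 8 arrays (19462, of which 16414 have a gene name). The comparison used lmFit and eBayes (variance trend), unpaired as in the methods, with Benjamini-Hochberg adjustment over all kept probes. Exact permutation tests were two-sided. A gene is represented by its brightest kept probe, and every probe of the macrophage genes is given. Of other lists, up to 4 called genes in each direction with the largest change are named, and marker genes without a call where a level needs them. The Ms4a family, and other genes named without a call, were chosen after their values were seen.

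Gene names come from the platform annotation, which gives 1 gene for 18216 probes, several for 8 (left unnamed) and none for 3541 of the second table. Of the names, 18196 were updated by gene identifier to RefSeq on GRCm38.p6, the build of all coordinates and start regions, and 20 were kept as given. The macrophage genes and all other lists were chosen with earlier results of these data known. The titles give each group replicates 1 to 4. Same-numbered arrays deviated together from their group means (correlations 0.19, 0.43, 0.25 and 0.57 across probes), which is a property of the data and is stated by no label. The replicate block is therefore an alternative, and its counts stand beside those of each list whose calls it changed. Other alternatives were the normalization, background correction, filter, variance trend, array weights, the authors' normalized table, the unpaired t-test of the methods, a fat cell covariate, the mean of a gene's probes and each array left out.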

Additional observations from a re-analysis of the deposited data

Results flagged for a closer look

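Single arrays stood far from the other 3 of their group in 4 of 56 groups of 4 that were looked at, where chance gives about 1 in 20. Cd163 was at 5.05 on the log2 scale in 3M-052 node 2, with the other 3M-052 nodes at 4.35 to 4.40, and node 2 is the 3M-052 array on which its probe was detected. The mean of the 7 sinus and medullary macrophage genes was 7.89 in 3M-052 node 3, below 8.55 to 8.61 in the other 3M-052 nodes. Without that node the log2 fold change of Ms4a7 was 1.48 and that of Siglec1 0.29. The mean of the T cell markers was also lowest there, at 10.8, with the others at 11.3 to 11.4. The mean of the inflammatory monocyte markers was 8.45 in 3M-052 node 4, with the others at 8.90 to 8.93.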

How the results depend on the processing

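The count of macrophage genes called, 1 higher and 0 lower, was the same with the replicate block, other background corrections, other filters, centering, no variance trend, array weights, the authors' normalized table, the mean of a gene's probes and the unadjusted t-test. It was 0 higher with the adjusted t-test and with fat cell markers as a covariate, and 0 to 1 higher and 0 to 0 lower with 1 array left out. Directions turned for Siglec1 (-0.34 without vehicle replicate 1, -0.05 without 3M-052 replicate 4, and at most 0.32 with 1 array left out) and Mertk (-0.011 without 3M-052 replicate 2, and at most 0.39), and for no other macrophage gene. Over all probes, against 546 higher and 446 lower, the calls were 1232 and 1499 with the replicate block, 838 and 869 with array weights, 428 and 145 with arrays centered on their median, 415 and 255 without a filter, 1486 and 2176 with the unadjusted t-test, 118 and 98 with the adjusted one, 145 and 24 with the fat cell covariate, and 269 to 667 and 115 to 661 with 1 array left out, where fewer samples enter the fit. The cause of the other changes was not tested. Centering moved the median of all probes to -0.02, against -0.01. The block changed no call of the macrophage genes at any probe that passed the filter. The p-values of the unpaired fit rest on the spread between the 4 arrays of a group, 1 mouse each. That spread includes whatever same-numbered arrays share. A gene near background, as Cd163 and the dim probes of Adgre1 and Ms4a7 were, has only a bound on some arrays.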
